A study of Mus musculus with 6 samples.

Results

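Cyclins, the cyclin-dependent kinases (CDKs) that they switch on and the CDK inhibitors that hold those kinases back were compared between germ cell preparations of the newborn mouse ovary and testis. The genes were chosen by the symbol in the platform annotation, as cyclins (Ccn and a letter), CDKs (Cdk and a number) and inhibitors of the Cip/Kip and INK4 families. The array held probes for 49 of them among 19056 named genes, namely 24 cyclins, 19 CDKs and 6 inhibitors, with 112 probes in all. Of these, 42 genes with 73 probes were detected on at least 3 of the 6 arrays (detection p-value under 0.05) and were tested among 10628 genes.

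Spermatogonial stem cells (SSC), the cells that keep sperm production going, came from the testes of CD1 mice at an age of 6 days. Female germline stem cells (FGSC), a name given to dividing germ cells reported in the ovary, came from CD1 ovaries at an age of 3 days. Each group has 3 samples, hybridised to Illumina bead arrays (Mouse WG-6 v2.0), and the labels name no treatment, transgene or allele in either group. They do not say by which marker the cells were isolated, whether they were cultured, or whether the 3 replicates came from separate animals, so p-values measure only how far these samples differ among themselves, and that spread may be technical. The groups differ in organ, sex and age at once, and these cannot be told apart.

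A dividing cell commits to a new cycle when D cyclins with Cdk4 or Cdk6, and then E cyclins with Cdk2, phosphorylate the retinoblastoma protein and free E2F transcription factors. A and B cyclins with Cdk1 and Cdk2 then carry the cell through S phase and mitosis, and the SCF and APC/C ubiquitin ligases destroy cyclins and inhibitors at each step. INK4 inhibitors bind Cdk4 and Cdk6, while Cip/Kip inhibitors bind cyclin and CDK complexes more widely. A separate set of cyclins and CDKs does not time the cycle but phosphorylates RNA polymerase II or acts in the Mediator complex. At these ages spermatogonia divide by mitosis, whereas ovarian germ cells have mostly entered meiotic arrest as oocytes.

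Some genes described below have promoter matches to sequence elements by which the cell cycle and the p53 pathway are known to control transcription. RefSeq windows of the GRCm38.p6 assembly, from 250 bases before to 50 bases after a start site, were found for 33 of the 42 tested genes. They are shown for Cdk1 (chr10:69352863-69353162, minus strand), Cdk2 (chr10:128705002-128705301, minus strand), Ccnf (chr17:24251360-24251659, minus strand) and the upstream start of Cdkn1a (chr17:29090729-29091028, plus strand). Each runs 5′ to 3′ along the gene's strand, and capitals mark matches, on either strand, to an E2F-type motif (TTTNNCGC), the cell cycle homology region (CHR, TTTGAA) or the CCAAT box, and in Cdkn1a the fixed letters of a p53-type motif (CATG, any 6 bases, CATG).
Cdk1: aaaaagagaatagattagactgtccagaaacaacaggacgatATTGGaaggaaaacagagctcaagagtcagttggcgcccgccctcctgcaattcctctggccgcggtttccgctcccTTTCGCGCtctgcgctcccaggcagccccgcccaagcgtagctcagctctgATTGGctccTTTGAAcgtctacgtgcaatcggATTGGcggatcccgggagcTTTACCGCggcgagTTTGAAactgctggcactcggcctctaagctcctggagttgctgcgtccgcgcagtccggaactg
Cdk2: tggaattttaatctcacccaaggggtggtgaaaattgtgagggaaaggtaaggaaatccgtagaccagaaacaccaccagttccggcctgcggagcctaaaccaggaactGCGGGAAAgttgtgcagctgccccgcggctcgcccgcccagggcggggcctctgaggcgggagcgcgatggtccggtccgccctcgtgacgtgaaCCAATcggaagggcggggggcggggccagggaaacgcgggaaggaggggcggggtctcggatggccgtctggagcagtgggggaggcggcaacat
Ccnf: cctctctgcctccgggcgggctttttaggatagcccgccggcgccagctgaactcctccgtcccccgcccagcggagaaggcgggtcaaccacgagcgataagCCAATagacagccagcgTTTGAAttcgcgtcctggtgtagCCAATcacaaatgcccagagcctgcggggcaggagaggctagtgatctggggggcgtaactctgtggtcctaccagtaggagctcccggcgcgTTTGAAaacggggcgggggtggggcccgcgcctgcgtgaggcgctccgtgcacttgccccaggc
Cdkn1a: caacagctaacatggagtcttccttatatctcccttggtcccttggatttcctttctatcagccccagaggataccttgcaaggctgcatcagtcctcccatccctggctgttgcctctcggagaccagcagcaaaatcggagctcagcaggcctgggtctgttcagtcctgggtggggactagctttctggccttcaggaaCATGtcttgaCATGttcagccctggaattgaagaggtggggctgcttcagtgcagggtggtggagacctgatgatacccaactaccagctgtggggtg
The Cdk1 window held 2 E2F-type matches, 2 CHR matches, whose first bases lay 71 and 15 bases before the start site, and 3 CCAAT matches. Ccnf had 2 CHR and 2 CCAAT matches and no E2F-type match, and Cdk2 had 1 E2F-type and 1 CCAAT match. The E2F-type motif was in windows of Cdk1, Cdk2 and Cdkn2a, or 10.5% of the 38 windows of tested genes, against 5.17% of all 32851 windows. The CHR was in the windows of 5 tested genes (Ccnf, Ccni, Cdk1, Cdk16 and Cdkn2b), or 13.2% of the 38, against 17.9% of all windows. The CCAAT box was in those of 15 tested genes, or 39.5% of the 38, against 37.4% of all windows. The p53-type motif was in 1 window, of Cdkn1a, or 2.63% of the 38, against 0.712% of all windows. The windows of Ccne1 (chr7:38107441-38107740, minus strand) and of the downstream start of Cdkn1a (chr17:29093519-29093818, plus strand) held no match and are not printed. No matches of different motifs overlapped in the windows shown. A match describes the letters and does not show a bound factor.

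The arrays detected 16198 to 18823 of 45281 probes, and median raw signals lay between 94.1 and 98.6. FGSC replicate 3 stood apart, with 147 genes at least 2 log2 units below the mean of FGSC replicates 1 and 2 and 3 genes as far above it. Cdk1 was the only member of the group among them, at -3.39 from that mean, and Cdk20 lay at 1.12 from it. In what follows a level is a normalized log2 signal, means carry the SD over 3 arrays, differences are given as the FGSC mean less the SSC mean in log2 units, each with its standard error (SE) from limma, and adjusted p-values are those of limma with Benjamini-Hochberg adjustment over all 10628 genes. Signals of different probes are not compared with each other. Less RNA per cell and fewer cells with the RNA cannot be told apart in these bulk preparations.

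Markers of germ cells and of other cell types moved with the groups. Of 8 tested general germ cell genes of 10, 2 were higher and 3 lower in FGSC. Tex14 and Dazl, the brightest of them, were detected on all 6 arrays and gave uncalled differences of -0.01 and -0.53. The summed log2 signal of the list was 13.35 to 13.47 in FGSC against 11.62 to 11.64 in SSC, but without Dppa3, singled out after its values were seen, it was 10.79 to 11.29 against 11.61 to 11.63. All 11 tested oocyte genes of 12 were higher in FGSC, with a summed signal of 14.55 to 14.67 against 8.35 to 8.42. Of these 11 genes 4, Padi6 among them, were detected on no SSC array. The detection filter fixed their direction, so their calls are no support for it. Padi6, a gene of the oocyte cytoplasmic lattice, was at least 329-fold higher (adjusted p = 6.30e-08), and Nlrp5, a maternal gene detected on 1 SSC array, was higher by 8.82. Of 9 tested genes of undifferentiated spermatogonia 7 were lower and 0 higher (9.67 to 9.75 against 11.43 to 11.66). Of these 9 genes 2 were detected on no FGSC array, as was 1 of the 8 general germ cell genes, with the same limit. The pluripotency-linked factor Sall4 fell by 0.70, Id4 gave an uncalled -0.51, and Gfra1, Pax7 and Utf1 did not pass the detection filter.

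Genes of somatic cell types were also read on the SSC arrays. Of the Sertoli cell list 5 of 8 tested genes were lower and 2 higher in FGSC (8.15 to 8.53 against 9.78 to 9.88), with Amh at least 13.1-fold lower and Inha lower by 0.61. The higher calls in this list depended on the setting. With median scaling 0 were higher and 7 lower, without background correction 0 and 5, and with the authors' processed values 2 and 6. Of the peritubular and smooth muscle list 6 of 7 were lower (8.52 to 8.63 against 11.61 to 11.71), led by Mylk (-4.94) and Myl9 (-3.57). Of the Leydig and theca list 3 of 4 were lower (6.72 to 6.77 against 8.25 to 8.47) and of the endothelial list 5 of 8 (7.81 to 7.85 against 8.49 to 8.54). Cyp17a1 and Insl3 of the former and Cdh5 and Flt1 of the latter were detected on no FGSC array. The granulosa list had 2 higher and 3 lower of 8 genes (8.86 to 9.05 against 8.92 to 9.02), with Irx3 higher by 2.17, Amhr2 uncalled at -0.30 and its transcription factor Foxl2 not past the filter. Of the macrophage list 1 of 3 was lower (6.60 to 6.69 against 6.70 to 6.80), with Lyz2 and Csf1r uncalled at 0.04 and -0.10. Of the erythroid list 1 of 3 was lower (9.81 to 10.17 against 11.02 to 11.07), Hba-a1 at -1.17, with Hbb-bs uncalled at -0.34. Genes detected on no FGSC array numbered 4 of 8 in the Sertoli list, 4 of 4 in the Leydig and theca list and 5 of 8 in the endothelial list. The granulosa list held 2 such genes, and the peritubular, macrophage and erythroid lists 1 each. All of them passed the filter only through SSC, so it fixed their direction and their calls are no support for it. The part of these cell types in the differences below was not tested.

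Of the 42 tested cyclins, CDKs and inhibitors, 12 were higher and 13 lower in FGSC and 17 were not called, so 25 differed. Among all genes tested 62.4% were called, 30.9% higher and 31.5% lower, so the shares in this family were near the background. The median difference was -0.14, against -0.003 over all genes, and the differences ran from -1.66 for Ccnd1 to 1.19 for Ccni. A log2 difference of at least 1 in size was reached by 9 of the 42 genes, all of them called, and by 26.7% of all genes with a call. The 3 values of the groups did not overlap in 26 of the 42 genes and in 71.0% of all genes. Without FGSC replicate 3, 15 were higher and 13 lower. Of the 7 genes that were not tested, Ccna1, Ccna2, Ccnb2, Ccnj, Cdk17 and Cdk18 were detected on no array, and Cdk6 on 2 SSC arrays and no FGSC array. The A cyclins and the mitotic cyclin Ccnb2 were each represented by 1 probe, so no level is given for them. No probe was annotated to the mitotic cyclin Ccnb1 alone, so Ccnb3 was the only B cyclin tested. Ccnl2 and Cdk3, detected on no FGSC array, and Cdk15, detected on no SSC array, could pass the filter only through the group where they were higher, so the filter fixed their direction and their calls are no support for it. Among the 35 genes detected on all 6 arrays 11 were higher and 11 lower, or 62.9% called, against 63.7% of all genes so detected.

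**Figure D1:**
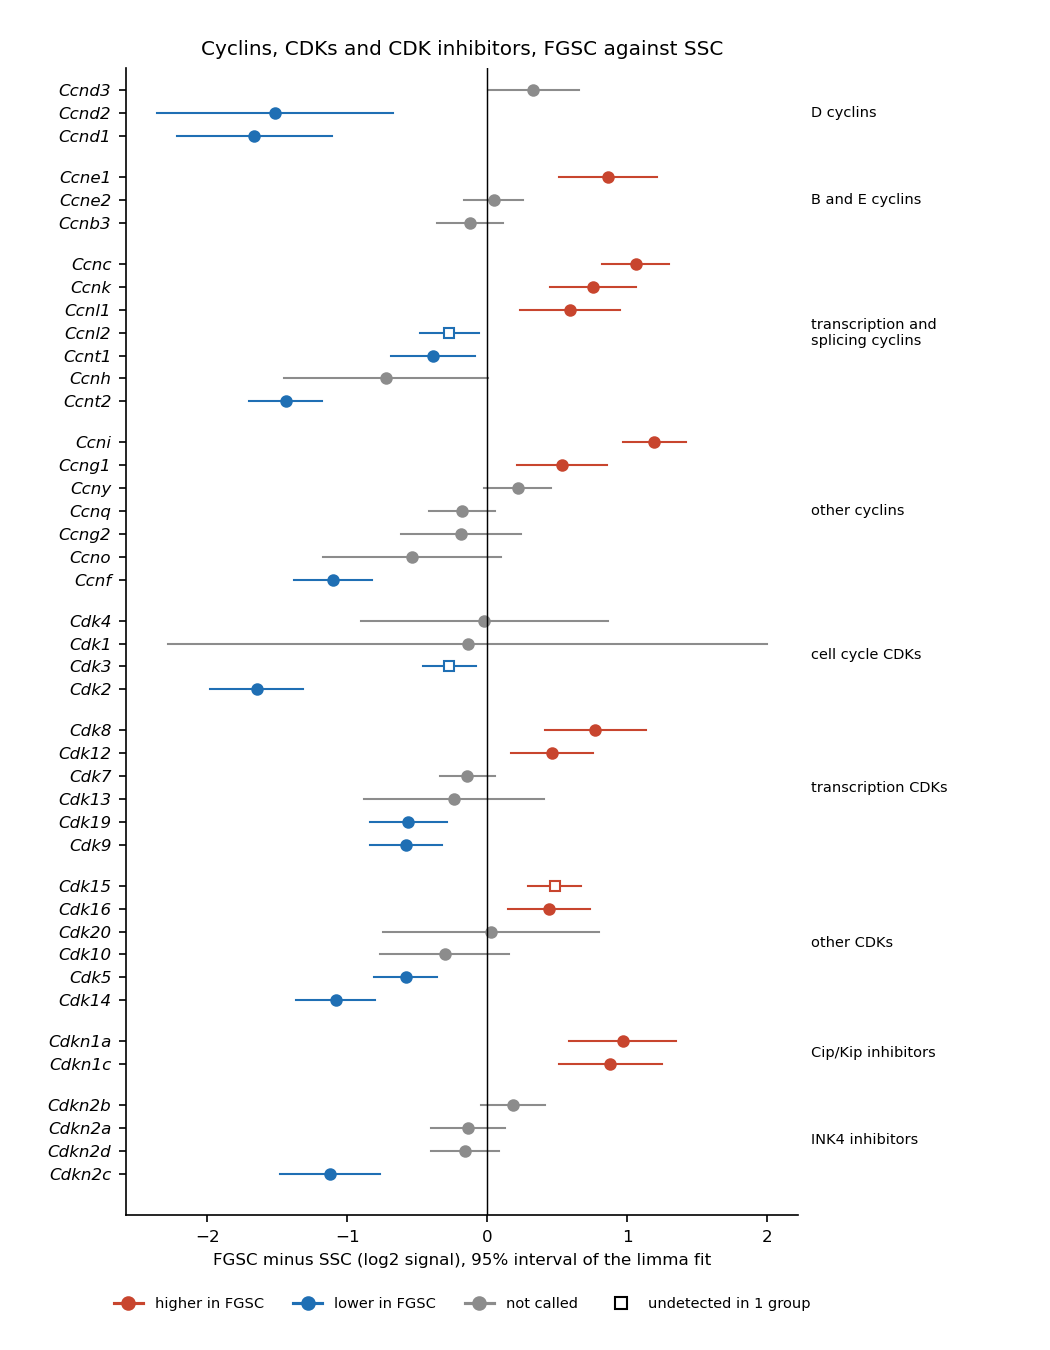
Difference between FGSC and SSC (horizontal axis, log2 signal) for the 42 tested genes, grouped by role, with the 95% interval of the limma fit. Points right of 0 were higher in FGSC, coloured points passed the test and grey points did not, and open squares mark the 3 genes undetected in 1 group. Ccnd1, Cdk2 and Ccnd2 lie furthest to the left and Ccni furthest to the right, and Cdk1 has the widest interval, from -2.28 to 2.00.

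The D cyclins, which link growth factor signals to entry into the cycle, split. Ccnd1 stood at 7.10, 7.85 and 7.94 in SSC replicates 1 to 3 and at 5.89, 5.86 and 6.15 in FGSC. All SSC values lay above all FGSC values, and the gene fell by 1.66 ± 0.23 (SE), 3.17-fold, with an adjusted p of 0.000859 in limma. Its other probes also fell, by 2.21 ± 0.14 and, with values that overlapped between the groups, by 0.94 ± 0.32. Without background correction the difference was -0.90.
Ccnd2 stood at 6.09, 7.41 and 7.11 in SSC and at 5.51, 5.57 and 4.97 in FGSC. The groups did not overlap, although SSC replicate 1 was well below the other SSC arrays, and the difference was -1.52 ± 0.35 (adjusted p = 0.00887, limma). Its probes did not move together. A second probe, detected on no FGSC array, was at least 3.86-fold lower in FGSC, while 1 more was higher by 0.91 ± 0.12 (adjusted p = 0.000806 over all kept probes, limma). The direction of the second probe was fixed by the detection filter. Only the probe that was higher passed a stricter filter (detection p under 0.01 on all 6 arrays), so the direction of Ccnd2 depends on the probe, and the mean of its probes gave -0.88. Without background correction the brightest probe gave -0.69. Ccnd3 was at 6.25, 6.35 and 6.50 in SSC and at 6.89, 6.76 and 6.45 in FGSC. The groups overlapped through FGSC replicate 3, and the difference of 0.33 (95% interval 0.01 to 0.66) was not called (adjusted p = 0.0714), but it was called without that array (0.46, adjusted p = 0.00815, limma). Its second probe gave an uncalled difference of -0.15, so the direction of Ccnd3 depends on the probe.

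Among the kinases that drive the cycle, Cdk2, the partner of E and A cyclins, was the clearest to fall. It stood at 9.98, 10.08 and 10.43 in SSC and at 8.64, 8.39 and 8.52 in FGSC. The gap between the groups was several times the spread within them, and the difference was -1.65 ± 0.14 (3.13-fold lower, adjusted p = 8.01e-05, limma). Its 3 other probes fell as well, by 0.88, 0.88 and 1.38, so all 4 probes of Cdk2 had the same call. Cdk1, the mitotic kinase whose promoter carries both CHR matches, stood at 8.33, 8.24 and 8.38 in SSC and at 9.45, 9.17 and 5.92 in FGSC. FGSC replicates 1 and 2 lay above and FGSC replicate 3 below all SSC arrays. The difference was -0.14 ± 0.89 (95% interval -2.28 to 2.00) and not called with all arrays, and 0.99 and called without FGSC replicate 3 (adjusted p = 0.000319, limma). The other 2 probes of Cdk1 did not pass the filter, so the low value has no second probe to set beside it. Cdk4, the partner of the D cyclins, was at 7.0, 5.92 and 7.39 in SSC and at 6.55, 6.68 and 7.02 in FGSC. The FGSC values lay within the SSC range, and the difference of -0.02 was not called (95% interval -0.90 to 0.86). Its dimmer probe was lower by 1.19 ± 0.09 (adjusted p = 4.65e-05 over all kept probes, limma), and the mean of both probes gave a called -0.60 (adjusted p = 0.0454, limma). Cdk3, which acts at exit from quiescence in human cells, was at least 1.13-fold lower in FGSC, where it was detected on no array, and its call was lost without either of SSC replicates 1 and 2 or FGSC replicates 1 and 2 (adjusted p 0.0669 to 0.0802, limma).

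Of the E and B cyclins, Ccne1, which activates Cdk2 at the start of S phase, rose. It stood at 4.97, 4.96 and 4.87 in SSC and at 5.58, 5.70 and 6.11 in FGSC. SSC values were close to the floor of detection, all FGSC values lay above them, and the difference was 0.86 ± 0.15 (1.82-fold higher, adjusted p = 0.00211, limma). The difference was 0.48 with an offset of 50 and 0.34 without background correction. Its paralogue Ccne2 was at 5.36 ± 0.12 (SD, n = 3) in SSC and 5.40 ± 0.01 in FGSC, a difference of 0.05 (95% interval -0.16 to 0.26) that was not called. Ccnb3, a cyclin of the first meiotic division in mouse oocytes, gave -0.12 (95% interval -0.36 to 0.11) and was not called. Its values lay at 4.85 to 5.22, close to the floor of detection, and it was detected on 2 FGSC arrays. Cyclin E1 and its kinase Cdk2 thus carried calls in opposite directions.

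**Figure D2:**
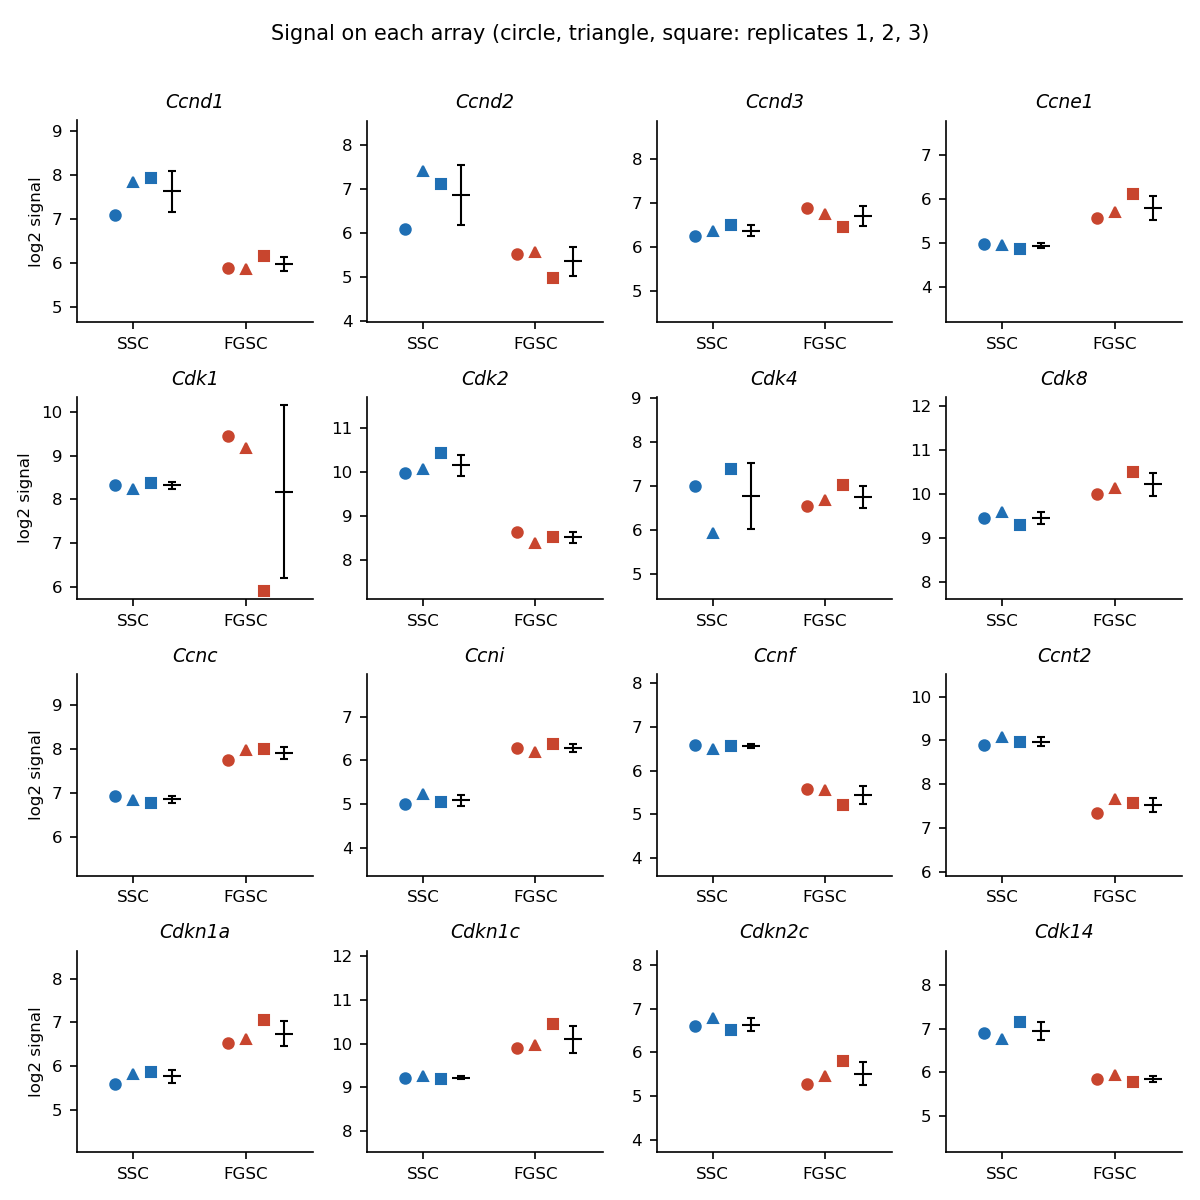
Normalized log2 signal (vertical axis, the same span in every panel) on each SSC (blue) and FGSC (red) array for 16 genes, with the mean and SD of each group as a black bar. Ccnd1, Cdk2, Ccnf and Ccnt2 are lower on all 3 FGSC arrays and Ccnc, Ccni, Cdkn1a and Cdkn1c higher on all 3, while Cdk1 is split by FGSC replicate 3 at 5.92.

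Cip/Kip inhibitors were represented by Cdkn1a and Cdkn1c, and both rose. Cdkn1a, the p21 gene and a classical target of p53, stood at 5.60, 5.83 and 5.88 in SSC and at 6.53, 6.63 and 7.06 in FGSC. All FGSC values lay above all SSC values, and the difference was 0.97 ± 0.16 (1.96-fold, adjusted p = 0.00186, limma). Its other probes rose more. The second stood at 4.96, 5.20 and 4.93 in SSC and at 6.94, 6.98 and 6.16 in FGSC, a difference of 1.66 ± 0.23. Another, detected on no SSC array, was at 7.54, 7.46 and 7.84 in FGSC and at least 7.18-fold higher there. The direction of that last probe was fixed by the detection filter. The size depends on the probe, with 1.83 for the mean of all 3. Cdkn1c, the p57 gene, an imprinted inhibitor expressed from the maternal allele, was at 9.22, 9.26 and 9.18 in SSC and at 9.89, 9.96 and 10.45 in FGSC. The SSC arrays were nearly equal, the FGSC arrays were all higher, and the difference was 0.88 ± 0.15 (1.84-fold, adjusted p = 0.00253, limma). Without FGSC replicate 3, the array with the highest value of both genes, Cdkn1a gave 0.81 and both calls held.

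Of the INK4 inhibitors, Cdkn2c fell. This gene encodes p18, which binds Cdk4 and Cdk6, and it stood at 6.61, 6.78 and 6.51 in SSC and at 5.28, 5.46 and 5.79 in FGSC. The groups were well separated, with a difference of -1.12 ± 0.15 (2.18-fold lower, adjusted p = 0.00069, limma), and its other probe, undetected on FGSC arrays and so past the filter only through SSC, was at least 1.25-fold lower. Cdkn2a, which encodes p16 and p19Arf, Cdkn2b (p15) and Cdkn2d (p19) lay between 4.83 and 5.42 on all 6 arrays, close to the lower end of detection. Their differences of -0.14, 0.19 and -0.16 were not called. The 95% intervals ran from -0.40 to 0.13, from -0.05 to 0.42 and from -0.40 to 0.08.

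Cyclins and kinases of transcription also went both ways, and partners are given side by side. Cyclin C and Cdk8 form the kinase module of Mediator, in which Cdk19 can take the place of Cdk8. Ccnc stood at 6.94, 6.85 and 6.78 in SSC and at 7.75, 7.99 and 8.0 in FGSC, a rise of 1.06 ± 0.10 (adjusted p = 0.000130, limma). Its other probes gave a called 0.71 and an uncalled 0.24, and the mean of the 3 gave 0.67. Cdk8 stood at 9.45, 9.58 and 9.30 in SSC and at 10.01, 10.14 and 10.51 in FGSC, a rise of 0.77 ± 0.15 (adjusted p = 0.00402). Neither gene overlapped between the groups, and both were higher on every FGSC array. Only 1 of the 3 probes of Cdk8 was kept, and the others were each detected on 1 SSC array and no FGSC array. Cdk19 stood at 7.03, 6.79 and 6.85 in SSC and at 6.15, 6.48 and 6.35 in FGSC, a fall with a difference of -0.56 ± 0.12 (adjusted p = 0.00517, limma). Its second probe gave an uncalled 0.15, and the mean of both probes was not called (-0.21, adjusted p = 0.0765).

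P-TEFb, the kinase that releases paused RNA polymerase II, consists of Cdk9 and a T cyclin, and the brightest probes of all 3 genes were lower in FGSC. Ccnt2 stood at 8.89, 9.08 and 8.95 in SSC and at 7.35, 7.67 and 7.58 in FGSC, a difference of -1.44 ± 0.11 (2.71-fold lower, adjusted p = 4.91e-05, limma). Cdk9 stood at 7.50, 7.52 and 7.55 in SSC and at 6.81, 6.86 and 7.15 in FGSC, a difference of -0.58 ± 0.11 (adjusted p = 0.00318). The groups of both genes were apart, although 2 dimmer probes of Ccnt2 gave uncalled differences of -0.23 and -0.16 and the mean of its probes -0.61. Ccnt1, the other cyclin of Cdk9, showed a smaller difference of -0.39 ± 0.12 (adjusted p = 0.0325), which was lost without any one of SSC replicates 1, 2 and 3 or FGSC replicates 1 and 2 (adjusted p 0.0592 to 0.103, limma). With median scaling Ccnt1 was not called either. Its second probe gave an uncalled 0.14, and the mean of both an uncalled -0.12. The P-TEFb inhibitor gene Hexim1, from the list of CDK regulators, was lower as well, by -1.10 ± 0.12 (adjusted p = 0.000328).

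Ccnk, the cyclin of Cdk12 and Cdk13, was near the floor of detection in SSC at 4.97, 4.99 and 4.98 and stood at 6.00, 5.67 and 5.53 in FGSC, a rise of 0.76 ± 0.13 (adjusted p = 0.00221, limma). With median scaling it was not called (0.55, adjusted p = 0.0939). Cdk12 rose by 0.46 ± 0.12, with 1 of its other probes at 0.46 and 1 at a called -0.35, and its call was lost without SSC replicate 2 (0.43, adjusted p = 0.0550, limma), with median scaling (0.22) and for the mean of its probes (0.19). Cdk13 stood at 8.82 ± 0.11 (SD, n = 3) in SSC and 8.58 ± 0.56 in FGSC, where replicate 3 lay at 7.94 against 8.97 and 8.84, and was not called. Its second probe was higher by 0.51 ± 0.12 (adjusted p = 0.0118 over all kept probes, limma) and lay at 7.44, 7.26 and 7.23 on the FGSC arrays, without a low value on replicate 3. Of the CDK-activating kinase, which phosphorylates other CDKs, Cdk7 gave -0.14 (95% interval -0.34 to 0.05) and Ccnh -0.72 (95% interval -1.45 to 0.01), both uncalled. Cdk7 lay at 4.73 to 5.01, close to the floor of detection, and was detected on 1 FGSC array. Ccnh ranged from 6.42 to 7.55 within SSC and was called without SSC replicate 1 (-0.98, adjusted p = 0.0299, limma). Its dimmer probe, close to the floor and detected on 2 SSC arrays and 1 FGSC array, gave an uncalled 0.04 (95% interval -0.13 to 0.21). The splicing-linked Ccnl2 was at least 1.13-fold lower, a call that was lost without SSC replicate 1 or 2 or FGSC replicate 1 or 3 (adjusted p 0.0505 to 0.110, limma). With median scaling Ccnl2 was not called either. Its relative Ccnl1 was read as higher by 0.59 ± 0.15 from a probe whose signal and detection p-value were out of order. Another Ccnl1 probe was lower by 1.54 ± 0.10 (adjusted p = 2.91e-05 over all kept probes, limma). The last kept probe gave an uncalled -0.99, without overlap between the groups. Only the out-of-order probe was higher, so the direction of Ccnl1 depends on the probe and was not settled.

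Among the other cyclins, Ccni and Ccnf moved most. Ccni, an atypical cyclin abundant in non-dividing cells, stood at 5.0, 5.23 and 5.04 in SSC and at 6.28, 6.20 and 6.37 in FGSC. The groups were far apart, with a rise of 1.19 ± 0.09 (2.29-fold, adjusted p = 5.98e-05, limma). SSC values of Ccni were close to the floor of detection, and its other probe was detected on no array. Ccnf, an F-box protein and founding member of that family, with 2 CHR matches in its promoter, stood at 6.58, 6.50 and 6.57 in SSC and at 5.58, 5.55 and 5.21 in FGSC. All FGSC values lay below the nearly equal SSC values, with a difference of -1.10 ± 0.12 (2.15-fold lower, adjusted p = 0.000236, limma). Ccng1, a p53 target, rose by 0.54 ± 0.13 (adjusted p = 0.0120) and by 0.65 on a second probe, but another was called lower by 0.79 ± 0.13, and the gene was not called with median scaling (0.37, adjusted p = 0.209, limma) or for the mean of its probes (0.13). Ccng2, Ccno, Ccnq and Ccny gave uncalled differences of -0.19, -0.53, -0.18 and 0.22, with a second Ccnq probe at an uncalled 0.39. Ccng2 was detected on only 1 FGSC array. Ccny, an activator of Cdk14 and Cdk16 at the membrane, did not overlap between the groups and was called without FGSC replicate 3 (0.29, adjusted p = 0.0278, limma).

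Of the CDKs outside the core cycle and transcription, Cdk14 and Cdk5 fell. Cdk14, which links cyclin Y to Wnt receptor signalling, stood at 6.91, 6.76 and 7.16 in SSC and at 5.86, 5.93 and 5.79 in FGSC, a difference of -1.08 ± 0.12 (2.12-fold lower, adjusted p = 0.000265, limma). Cdk5, best known from neurons, was at 6.68 ± 0.12 (SD, n = 3) in SSC and 6.10 ± 0.08 in FGSC, a difference of -0.58 ± 0.09 (adjusted p = 0.00169). Neither overlapped between the groups. Only 1 of the 8 probes of Cdk14 was kept, and the others were detected on at most 2 SSC arrays and no FGSC array. Cdk16 rose by 0.44 ± 0.12 (adjusted p = 0.0187), a call lost without SSC replicate 2 (0.37, adjusted p = 0.0674) or 3 (0.43, adjusted p = 0.0532, limma) and with median scaling (0.31). Cdk15 stood at 5.15, 5.17 and 5.25 in FGSC, at least 1.34-fold above SSC, where it was detected on no array. Cdk10 gave -0.30 (95% interval -0.76 to 0.16) and was not called with all arrays, but leaving out FGSC replicate 3 gave a called -0.51 (adjusted p = 0.00897, limma) and median scaling a called -0.48. Its other 2 probes lay on the other side of 0, at uncalled differences of 0.25 and 0.35. Cdk20 gave 0.03 on its brightest probe, where FGSC replicate 3 stood at 7.71 against 6.56 and 6.62, but its other probes were called higher by 1.49 ± 0.13 and 0.40 ± 0.11, and the mean of the probes gave 0.64 (adjusted p = 0.0107, limma).

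Probes of 1 gene were not always called alike. Among the 73 kept probes the 19 genes with at least 2 kept probes had all probes called in 1 direction in 4 cases, Ccnd1, Cdk2, Cdkn1a and Cdkn2c. Probes were called in opposite directions in 4 others, Ccnd2, Ccng1, Ccnl1 and Cdk12, and the remaining 11 had at least 1 uncalled probe and no opposed calls. Among all 3850 genes with at least 2 kept probes 33.5% had all probes called in 1 direction and 6.08% had opposed calls. Probes undetected on every array of 1 group have their direction fixed by the filter. With these left out, a count added after the data were seen, 3 of 18 genes had all probes called in 1 direction (Ccnd1, Cdk2 and Cdkn1a), against 30.3% of 3319 genes, and the 4 genes with opposed calls were the same, against 6.30%. Of all kept probes that name 1 gene, 59.4% were called.

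**Figure D3:**
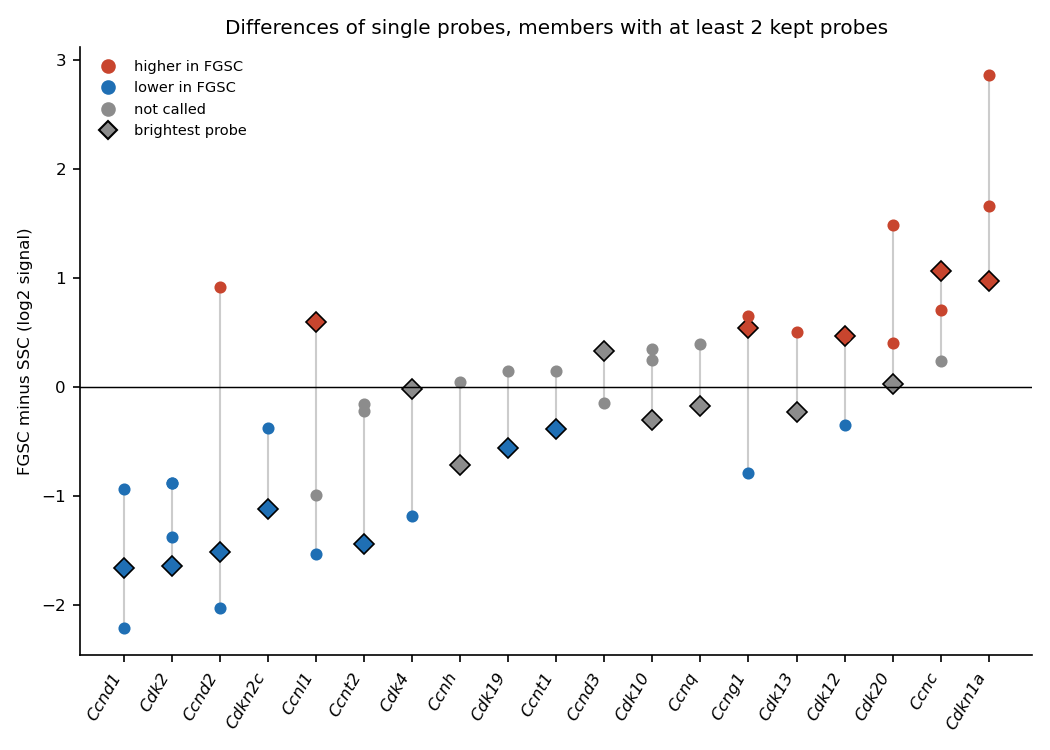
Difference between FGSC and SSC (vertical axis, log2 signal) of each kept probe for the 19 genes with at least 2 kept probes, coloured by call, with the brightest probe of each gene as an outlined diamond. All probes of Ccnd1, Cdk2 and Cdkn2c lie below 0 and all of Cdkn1a above it, while Ccnd2 spans -2.03 to 0.91 and Ccnl1 -1.54 to 0.59.

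The other genes of the pathway also split between the groups, as did all genes tested, of which 30.9% were higher and 31.5% lower. The lists below were not tested as sets. In the list of Cks subunits, enzymes that set CDK tyrosine phosphorylation and related genes, 3 rose and 3 fell of 7 tested of 10, with a median difference of -0.14. No Cks gene passed the detection filter. Of the 3 genes that fell 1 was detected on no FGSC array, so the filter fixed its direction and its call is no support for it. The phosphatase gene Cdc25b, which activates Cdk1 and is needed for meiotic resumption in mouse oocytes, rose by 1.78 ± 0.12 (adjusted p = 3.09e-05), Cdkn3, a CDK phosphatase read from a probe with signal and detection p-value out of order, by 1.65 ± 0.14, and Cdc25c fell by 1.36 ± 0.19 (adjusted p = 0.000827, limma). Cdc25a gave -0.14 and was not called. In the Rb, E2F and DREAM list 5 rose and 5 fell of 14 tested of 19 (median 0.36). E2f2 rose by 1.77 ± 0.10 and Mybl2 by 1.93 ± 0.09, whereas E2f3 fell by 1.54 ± 0.14 (adjusted p = 0.000121, limma) and Tfdp2 gave an uncalled -0.15.

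Degradation factors counted 7 higher and 5 lower of 21 tested of 29 (median 0.23). Of the 5 lower genes 1 was detected on no FGSC array, so the filter fixed its direction and its call is no support for it. Fzr1, the Cdh1 activator of APC/C that keeps cyclin B low in arrested mouse oocytes, rose by 1.85 ± 0.14 from 10.55 to 12.40 (adjusted p = 4.75e-05, limma). The APC/C subunit Anapc7 rose by 1.34 ± 0.10, Fbxo4, an F-box protein linked to cyclin D1 turnover, fell by 2.42 ± 0.12, and Cdc27 gave an uncalled 0.08. Activators and scaffolds of other CDKs counted 5 higher and 4 lower of 13 tested of 17 (median 0.15), with the centrosomal Cdk5rap2 up by 1.72 ± 0.12, Cables1 down with a difference of -1.16 ± 0.13, and Cdk5r1 uncalled at 0.07. With median scaling 3 were higher and 2 lower in that list and its median was -0.04.

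Genes that E2F activates for S phase counted 5 higher and 7 lower of 17 tested of 20 (median -0.10). The ribonucleotide reductase gene Rrm1 fell by 1.45 ± 0.09 and Cdc45 of the replicative helicase by 1.20 ± 0.18, while Gins2 of the same helicase rose by 1.18 ± 0.13 and Mcm5 gave an uncalled -0.09. Genes of G2 and M phase counted 5 higher and 4 lower of 14 tested of 22 (median 0.11). Birc5, the survivin gene, rose by 2.78 ± 0.19 (adjusted p = 2.82e-05) and the topoisomerase gene Top2a fell by 2.36 ± 0.08 (adjusted p = 1.93e-06, limma). Cenpa rose by 1.45 ± 0.45 on a probe with signal and detection p-value out of order and gave -0.20 without such probes. Nusap1 gave 0.00 and was called higher without FGSC replicate 3 (0.72, adjusted p = 0.0132, limma). The p53 target list, to which Cdkn1a and Ccng1 would belong, counted 4 higher and 2 lower of 14 tested of 18 (median -0.11), and with median scaling 3 higher and 5 lower. Bbc3, the Puma gene, rose by 2.46 ± 0.09 and Zmat3 by 1.15 ± 0.14, Ei24 fell by 1.00 ± 0.15, and Pmaip1, detected on no FGSC array, was not called. Without FGSC replicate 3 the S phase list counted 7 higher and 7 lower, the G2 and M phase list 6 and 4, and the p53 list 4 and 4.

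**Figure D4:**
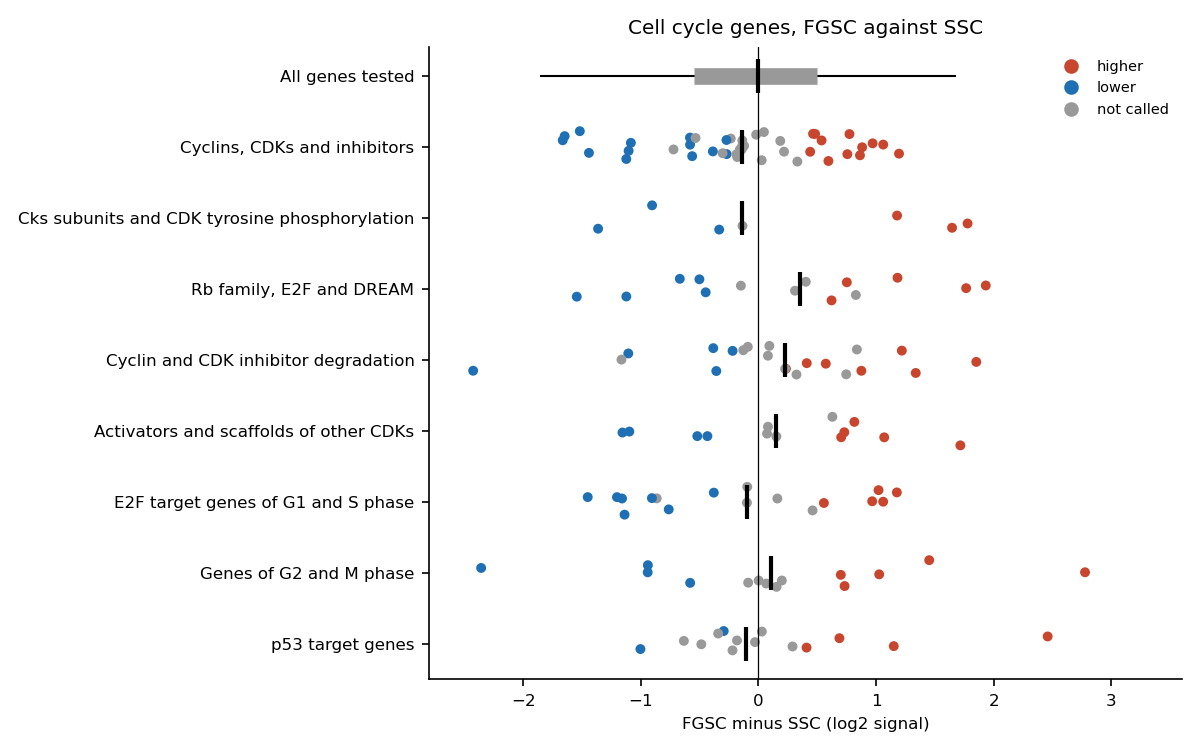
Difference between FGSC and SSC (horizontal axis, log2 signal) of each tested gene in the cyclin, CDK and inhibitor group and in 7 lists of other pathway genes, coloured by call, with the median of each list as a black tick. The top bar gives the 25th to 75th and its line the 5th to 95th percentile of all genes (-0.55 to 0.50 and -1.85 to 1.67), and every list has called genes on both sides of 0.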

How the data were processed

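RNA of 3 SSC and 3 FGSC samples was measured on Illumina bead arrays. The authors deposited, per the file headers, the mean intensity of each of 45281 probes with its detection p-value, without normalization between arrays. They also deposited processed intensity values of the same arrays. Their scale and centring are not stated. They had a rank correlation of 1.00 with the signals, the same distribution on each array, and a median of 19.9 in each column, and were used in 1 alternative. Per the submitters' processing notes, lumi was used.

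Groups and replicates came from the sample titles, and no column of other samples was used. Signals were background-corrected (normexp, from detection p-values), given an offset of 16, brought to common quantiles and logged to base 2, as log2 values (neqc, limma 3.58.1, R 4.3.3). Probes detected at p under 0.05 on at least 3 of 6 arrays were kept (18860), and each gene was read from its brightest kept probe. Only probes with exactly 1 gene symbol entered the gene test. Symbols came from the platform annotation, and RefSeq (GRCm38.p6) gave chromosomes and promoter windows. Differences were tested with lmFit and eBayes without covariates. An adjusted p under 0.05 was a call. A probe undetected on every array of a group has only a bound there, given as "at least", from the lowest detected signal of each array. An exact permutation test of 3 against 3 cannot go below p = 0.1, so none was run. Probes outside the longest run in which detection p falls as signal rises were called out of order (329 probes). The test was checked on simulated data. The genes, lists and motifs were chosen with earlier results of these data known. All 42 tested genes are named. Of each pathway list, up to 3 called genes with the largest difference and 1 uncalled gene are named, and of each cell type list the 2 with the highest means. Dppa3, Foxl2, Gfra1, Pax7 and Utf1 were named beside these after their values were seen. One gene matching the name pattern is not reported here. Same-numbered samples did not deviate together, so replicate numbers were not used as pairs. The number of arrays limits the precision.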

Additional observations from a re-analysis of the deposited data

How the results depend on the processing

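Of the 25 called genes, 15 kept their direction and call under every alternative that tested them, namely Cdkn1a, Cdkn1c, Ccnc, Ccne1, Ccni, Cdk8 and, with its direction fixed by the filter, Cdk15 (higher) and Ccnd1, Cdk2, Ccnt2, Cdk9, Ccnf, Cdk14, Cdk5 and Cdkn2c (lower). With median scaling 7 genes were higher in place of 12, and the number of lower genes stayed at 13, though not with the same genes. Ccnl1 and Cdk10 were then called lower, and Ccnt1 and Ccnl2 lost their calls. The median of all genes moved to -0.12 in that setting, with 39.1% of all called genes higher in place of 49.6%. Leaving out 1 replicate gave 10 to 15 higher and 10 to 13 lower genes. The other settings gave 10 to 12 higher and 10 to 14 lower, namely no background correction, an offset of 50, the authors' processed values, both other detection filters, the mean of kept probes, no out-of-order probes, updated symbols and the replicate block. Directions turned for Ccnl1, with -1.66 under median scaling, -0.90 with an offset of 50, -0.65 for the mean of kept probes and -1.54 without out-of-order probes, where other probes stand for the gene. They turned for Ccnd2 with the stricter filter, which left another probe (0.91), and for Cdk1, at -0.77 to 0.99 over the left-out replicates. With median scaling the Rb, E2F and DREAM list counted 3 higher and 3 lower, and the S phase list 3 and 6. In 13 further cases an uncalled difference changed sign. With the replicate block 11 genes were higher and 10 lower, and the calls of Ccnt1, Ccnl2, Cdk12 and Cdk3 were lost (adjusted p 0.0523 to 0.0773, limma). Same-numbered samples had correlations of deviations of -0.20, -0.05 and -0.22. A slide block was not run, since no slide is named. Genes near 5 in 1 group, such as Ccne1, Ccni, Ccnk and Cdk15, rest on a level close to background there.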
